A study of Homo sapiens with 20 samples.

Results

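The claudins are the membrane proteins that form the strands of tight junctions, the seals between neighbouring epithelial cells. The genes described here are the 8 rows of the expression table with the symbols CLDN1, CLDN2, CLDN3, CLDN4, CLDN6, CLDN7, CLDN9 and CLDN12, of 36076 genes in all, and 12 other claudin genes are in the same table. mRNA-seq was performed on 6 established human lung cancer lines, A549, CL1-0, CL1-5, PC9, H1299 and H1792, each grown with 100 nM decitabine (DAC) for 3 days and then without drug for 3 days, or as Mock without DAC. DAC is a cytidine analog that depletes DNA methyltransferases. Omni-ATAC-seq, which maps open chromatin, was performed on A549, CL1-5, PC9 and H1299 under the same conditions. Each line and treatment had 1 library per assay, so the lines are the replicates. CL1-0 and CL1-5 are related lines, CL1-5 having been derived from CL1-0, and are not fully independent.

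Claudins differ in what they do in the junction. CLDN1, CLDN3, CLDN4 and CLDN7 are mostly sealing claudins of adult epithelia, CLDN2 forms a pore for cations and water, and CLDN12 is a widely expressed member that lacks the C-terminal PDZ-binding motif of most claudins. CLDN6 is oncofetal: it is made in embryonic epithelia and pluripotent cells, is nearly silent in adult tissue and reappears in some tumours, where it is pursued as a surface target. CLDN9 is its closest paralog and lies next to it on the chromosome. The question put to the data was the level of each claudin in each line, its difference between DAC and Mock, and how CLDN6 compared with the adult claudins.

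The deposited expression values are FPKM, which are scaled to transcript length and library size, so levels can be compared between genes. The whole reads behind them were recovered from the table. The libraries other than H1299 held 22234485 to 25303899 reads on genes, and those of H1299 held 52634234 and 59735913. In the H1299 libraries 81.9% and 85.5% of genes with few reads had an even number, against at most 41.5% elsewhere, so reads of H1299 are not independent counts and a limit of 3 reads is looser there. Marker genes of several cell types were also read, which is no check of the line or treatment in a label. None of 5 lung epithelial markers (NKX2-1, SFTPB, SFTPC, SFTPA1, NAPSA) exceeded 0.417 FPKM in any of the 12 libraries, and the 6 general epithelial markers (keratins, EPCAM, CDH1) summed to 0.986 FPKM in CL1-0 Mock against 3589 in A549 Mock. Of 4 leukocyte markers, PTPRC and CD3E stayed at or below 0.0759 FPKM in every library. Of 4 fibroblast markers, 3 were tested and all 3 (COL1A1, COL1A2, PDGFRB) were higher after DAC at an unadjusted limma p under 0.05, as were 8.07% of all genes tested, and the list's sum ran from 0.279 to 73.8 FPKM in Mock and from 1.69 to 95.6 after DAC, highest in H1792. The endothelial marker VWF was also higher by that limit, at no more than 1.37 FPKM, while 0 of 3 mesenchymal markers (VIM, CDH2, FN1) passed it. Their part in the claudin values was not tested.

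CLDN6 and CLDN9 lie tail to tail on chromosome 16 (GRCh37), CLDN6 at chr16:3064713-3070072 on the minus strand and CLDN9 at chr16:3062924-3064506 on the plus strand, with 206 bp between their 3′ ends and 5260 bp between the start of the canonical CLDN6 transcript and that of CLDN9. CLDN3 (chr7:73183327-73184600, minus strand) and CLDN4 (chr7:73213872-73247020, plus strand) are neighbours on chromosome 7, their canonical starts 60726 bp apart. CLDN12 (chr7:90013035-90142716, plus strand) is on the same chromosome, CLDN1 (chr3:190023496-190040235, minus strand) on chromosome 3, CLDN7 (chr17:7163222-7167302, minus strand) on chromosome 17 and CLDN2 (chrX:106143394-106174091, plus strand) on the X chromosome. DAC acts on cytosines in CpG dinucleotides through the enzymes that methylate them, so the CpG content of the 250 bases before each canonical start is shown for 4 claudins, with every CG in capitals. CLDN6 is printed as the oncofetal claudin, CLDN7 and CLDN4 as the adult claudins that were higher after DAC in every line, and CLDN2 as the claudin with the fewest CpGs.
CLDN6, chr16:3068185-3068434, minus strand: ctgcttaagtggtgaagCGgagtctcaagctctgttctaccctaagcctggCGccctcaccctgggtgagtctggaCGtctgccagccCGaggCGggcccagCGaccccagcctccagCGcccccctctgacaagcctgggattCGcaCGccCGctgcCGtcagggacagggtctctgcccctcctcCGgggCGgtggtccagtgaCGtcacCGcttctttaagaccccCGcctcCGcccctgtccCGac
CLDN7, chr17:7165798-7166047, minus strand: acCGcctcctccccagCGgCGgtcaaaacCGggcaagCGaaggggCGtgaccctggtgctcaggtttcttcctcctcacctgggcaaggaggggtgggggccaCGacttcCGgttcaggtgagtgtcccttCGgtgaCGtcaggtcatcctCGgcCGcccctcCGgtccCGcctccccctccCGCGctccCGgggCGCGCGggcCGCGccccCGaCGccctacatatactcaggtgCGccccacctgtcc
CLDN4, chr7:73245076-73245325, plus strand: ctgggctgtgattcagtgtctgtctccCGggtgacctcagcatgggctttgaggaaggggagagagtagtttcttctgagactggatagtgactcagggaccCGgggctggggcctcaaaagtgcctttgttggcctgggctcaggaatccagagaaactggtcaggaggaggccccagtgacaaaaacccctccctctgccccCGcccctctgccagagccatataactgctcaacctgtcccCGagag
CLDN2, chrX:106163382-106163631, plus strand: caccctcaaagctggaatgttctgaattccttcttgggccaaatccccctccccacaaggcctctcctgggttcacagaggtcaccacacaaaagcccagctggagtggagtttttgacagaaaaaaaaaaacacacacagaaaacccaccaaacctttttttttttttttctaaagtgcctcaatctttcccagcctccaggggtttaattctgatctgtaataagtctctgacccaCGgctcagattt
These windows, read from the GRCh37 genome 5′ to 3′ on the strand of the gene, held 18 CpGs in CLDN6, 25 in CLDN7, 4 in CLDN4 and 1 in CLDN2. CLDN1 had 28, CLDN3 19 and CLDN12 12, and the median over 19817 promoters was 18. By this count, the 3 claudins higher after DAC in every one of the 5 lines were at percentile 15.7 (CLDN4), 47.9 (CLDN6) and 69.0 (CLDN7) of all promoters. By CpGs relative to the number expected from base content, within 500 bp of the start, they were at percentiles 26.5, 35.2 and 43.9. Whether CpG content bears on the differences was not tested. The E-box CAGGTG, searched on both strands, had 4 matches in the CLDN7 window and 0 in those of CLDN6, CLDN4 and CLDN2, and 17.4% of all promoters held at least 1. DNA methylation is not analysed here.

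Before DAC, the lines differed in which claudins they had, as the plot of FPKM by line shows, apart from CL1-0 and CL1-5. Taking 1 FPKM as the limit, PC9 Mock had 6 of the 8 above it, A549 and H1792 had 4, H1299 had 2, and CL1-0 and CL1-5 had 1, which was CLDN12. The sum of the 8 was 159.8 FPKM in PC9 Mock and 4.85 FPKM in CL1-5 Mock. After DAC, the number at or above 1 FPKM was 7 in PC9, 6 in A549, 5 in H1299, 3 in CL1-5 and 2 in CL1-0. These were higher numbers than in Mock in 5 of the 6 lines, and H1792 went from 4 to 3. The share of all genes at this limit was not computed. Genes with at least 1 read were also more numerous after DAC in each line. They went from 23964 to 28232 in A549 and from 24648 to 26085 in H1792. A limit of 1 read is looser than 1 FPKM, so whether the higher numbers are particular to claudins was not tested.

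**Figure D1:**
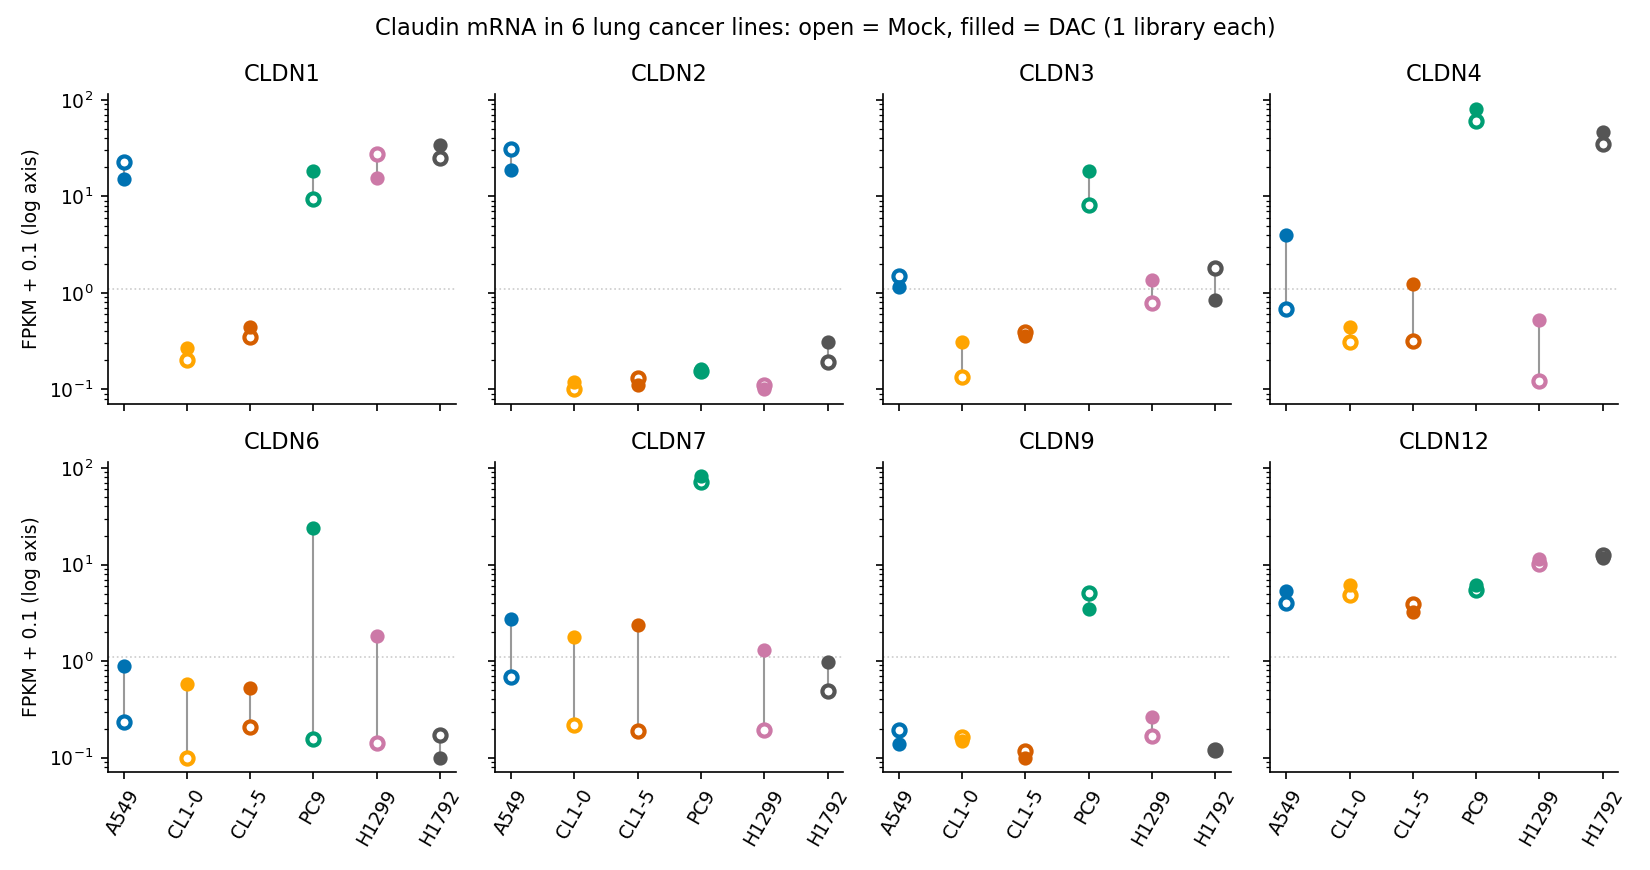
FPKM + 0.1 of the 8 claudins on a log axis in 6 lung cancer lines (x axis), open points for Mock and filled points for DAC, 1 library each, with a dotted line at 1 FPKM. CLDN12 lies above 3 FPKM in every library, CLDN2 and CLDN9 are high in 1 line each, and CLDN6 reaches 23.7 FPKM in PC9 after DAC.

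CLDN6 was at the limit of detection in Mock. Its FPKM was 0.0553 in PC9, 0.0402 in H1299, 0.134 in A549, 0 in CL1-0, 0.106 in CL1-5 and 0.0695 in H1792, which corresponds to 0 to 5 reads, where 3 reads are worth 0.0302 to 0.0830 FPKM. After DAC it was 23.7 in PC9, 1.72 in H1299, 0.796 in A549, 0.486 in CL1-0, 0.426 in CL1-5 and 0 in H1792. The 5 lines other than H1792 all lay above every Mock library after DAC, and PC9 stood far above the other lines, with 954 reads against 2. In H1792 both libraries were at or under 3 reads, so no difference was detectable there at this depth. In RNA from a whole culture, more cells with a transcript and more transcript per cell cannot be told apart.

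The ratio of DAC to Mock for CLDN6 was 428 in PC9 (95% exact conditional binomial interval 118 to 3542) and 42.7 in H1299 (16.4 to 159). It was 5.93 in A549 (2.31 to 19.4) and 4.02 in CL1-5 (1.44 to 13.8). CL1-0 had 0 reads in Mock and 25 after DAC, and the lower end of its interval was 5.01. Set against a floor of 3 reads in Mock, the ratio there was 6.64. These intervals and those given below for other claudins cover counting error only, for 1 library per treatment. Those of H1299 are too narrow for every claudin because of its even read numbers. Among the 22603 genes tested, the CLDN6 difference on log2(FPKM + 0.1) ranked 3 from the top in PC9, 174 in H1299 and 272 in CL1-0, and lower down in CL1-5 (1062) and A549 (1365).

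Over the 5 lines, CLDN6 was 3.36 ± 0.79 (SE, n = 5) higher after DAC on log2(FPKM + 0.1), with an unadjusted limma p of 0.0035 and a Benjamini-Hochberg adjusted p of 0.217 over all genes tested, and it was higher in 5 of 5 lines. It did not pass the adjusted threshold of 0.05. The mean FPKM of CLDN6 in Mock, 0.0672 ± 0.0533 (SD, n = 5), is under the filter of 0.1, so the gene was tested only because of its level after DAC. Without PC9 the log2 difference was 2.38, and fitted by voom to the recovered reads it was 5.01 (adjusted p = 0.058).

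CLDN7 was the adult claudin with the largest mean difference. In PC9 it was the most abundant of the 8, at 71.8 FPKM in Mock and 83.2 after DAC. In the other lines it went from 0.581 to 2.65 FPKM in A549, from 0.119 to 1.69 in CL1-0, from 0.0888 to 2.26 in CL1-5, from 0.0912 to 1.20 in H1299 and from 0.388 to 0.886 in H1792. Apart from PC9, every DAC library was above every Mock library, and PC9 was far above both. The ratios were 25.5 in CL1-5 (interval 11.4 to 70.7), 14.2 in CL1-0 (6.71 to 36.1), 13.2 in H1299 (7.47 to 25.2) and 4.56 in A549 (3.10 to 6.93), against 1.16 in PC9 (1.11 to 1.21). The mean log2 difference over the 5 lines was 2.33 ± 0.45 (SE, n = 5), with an unadjusted limma p of 0.0011 and an adjusted p of 0.170. Leaving out PC9 gave 2.86 with an adjusted p of 0.063, the lowest adjusted p of CLDN7 under any alternative.

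CLDN4 was high in PC9, at 60.3 FPKM in Mock and 79.8 after DAC, and in H1792, at 35.1 and 46.1. The other lines began lower, at 0.586 FPKM in A549, 0.220 in CL1-5, 0.207 in CL1-0 and 0.0223 in H1299, and were at 3.87, 1.13, 0.345 and 0.427 FPKM after DAC. All 6 lines were higher after DAC, by 1.31-fold in H1792 and 1.32-fold in PC9. The ratio was 6.60 in A549 (interval 5.03 to 8.82) and 5.14 in CL1-5 (3.40 to 8.04). In H1299 it was 19.1 (8.50 to 53.3, too narrow as for CLDN6), from 6 reads in Mock. In CL1-0 the ratio of 1.66 had an interval of 0.992 to 2.87, which includes no difference. Over the 5 lines the log2 difference was 1.50 ± 0.35 (SE, n = 5), with an unadjusted limma p of 0.0031 and an adjusted p of 0.210.

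CLDN3, another sealing claudin, was higher after DAC in some lines and lower in others. It was highest in PC9, at 8.01 FPKM in Mock and 18.1 after DAC, a ratio of 2.27 (interval 1.93 to 2.67). It was also higher after DAC in H1299, at 0.686 and 1.25 FPKM, and in CL1-0, at 0.0332 and 0.212 FPKM from 1 and 8 reads (ratio 6.38, interval 0.855 to 283). In A549 it went from 1.39 to 1.06 FPKM, in CL1-5 from 0.290 to 0.259 and in H1792 from 1.71 to 0.752, where the ratio was 0.440 (0.258 to 0.730). The log2 difference over the 5 lines was 0.54 ± 0.29 (SE, n = 5, limma adjusted p = 0.465), and higher and lower lines were mixed. The other CLDN3 levels were below those of PC9 in each treatment.

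CLDN1, which is required for the epidermal barrier, was abundant in 4 lines and low in the related lines CL1-0 and CL1-5. Its FPKM in Mock and after DAC was 25.0 and 34.3 in H1792, 27.1 and 15.3 in H1299, 22.8 and 15.0 in A549, and 9.27 and 18.4 in PC9. CL1-0 had 0.104 and 0.166 FPKM and CL1-5 had 0.252 and 0.349. The ranges of H1792, H1299, A549 and PC9 each overlapped with the next line in this order, while those of CL1-5 and CL1-0 lay apart below. The ratio was 1.98 in PC9 (interval 1.81 to 2.17), 0.658 in A549 (0.613 to 0.706) and 0.562 in H1299 (0.538 to 0.588, too narrow as for CLDN6). The directions thus differed between PC9 and A549 beyond counting error. The log2 difference over the 5 lines was 0.06 ± 0.27 (SE, n = 5, limma adjusted p = 0.943), and its sign depended on the lines and the scale used.

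CLDN2 was present in A549, at 31.0 FPKM in Mock and 18.7 after DAC, a ratio of 0.603 (interval 0.566 to 0.644), and it was the most abundant of the 8 there. In the other 5 lines it ran from 0 to 0.208 FPKM, with at most 17 reads. The log2 difference over the 5 lines was -0.16 ± 0.23 (SE, n = 5, limma adjusted p = 0.779). CLDN9 had the same kind of pattern with PC9 as its line, at 5.00 FPKM in Mock and 3.35 after DAC, a ratio of 0.670 (0.542 to 0.827), and from 0 to 0.166 FPKM in the others. In H1299 it was at 0.0682 FPKM in Mock and 0.166 after DAC, from 8 and 18 reads, a ratio of 2.43 (1.01 to 6.47, an interval too narrow for the reason given for CLDN6). Its log2 difference was -0.14 ± 0.25 (SE, n = 5, limma adjusted p = 0.821). In PC9, where CLDN6 was 428-fold higher, its neighbour and closest paralog CLDN9 was at 0.670 of its Mock level.

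CLDN12 was the claudin with the most even level. It ran from 3.09 FPKM, in CL1-5 after DAC, to 12.4 FPKM, in H1792 Mock, and the order was H1792, H1299, PC9, CL1-0, A549 and CL1-5. The ranges of PC9 and CL1-0 overlapped, and so did those of CL1-0 and A549, while the other neighbours in the order lay apart. The largest ratio of DAC to Mock was 1.34, in A549, and the smallest was 0.804, in CL1-5. The log2 difference over the 5 lines was 0.15 ± 0.14 (SE, n = 5, limma adjusted p = 0.640).

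**Figure D2:**
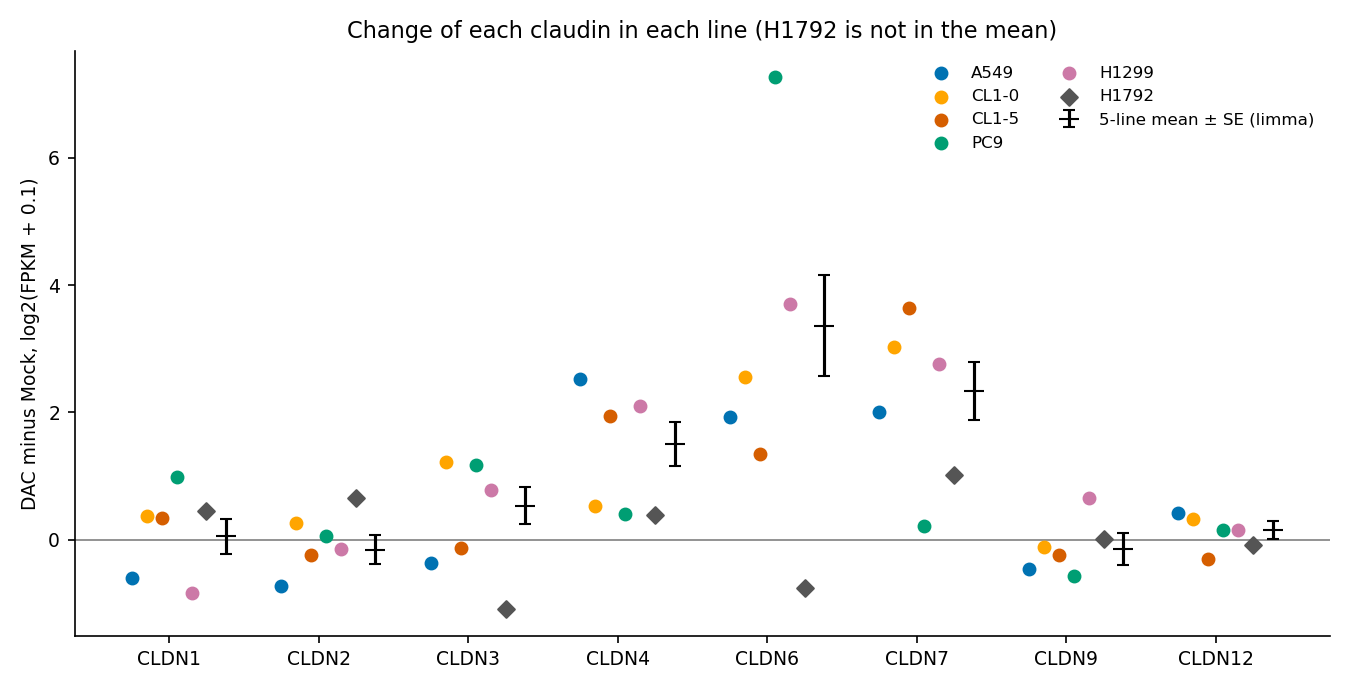
Difference between DAC and Mock on log2(FPKM + 0.1) for each claudin (x axis) in each line (coloured points, a diamond for H1792), with the limma mean ± SE over the 5 lines other than H1792 in black. CLDN4, CLDN6 and CLDN7 lie above 0 in all 5 of these lines, CLDN6 is at 7.26 in PC9, and the other 5 claudins have points on both sides of 0.

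None of the 8 claudins passed the adjusted threshold in limma, where 27 of 22603 genes were higher (0.119%) and 0 were lower (0.0%, with 994 genes lower at an unadjusted p under 0.05). At an unadjusted p under 0.05, 3 of the 8 were higher (CLDN4, CLDN6 and CLDN7), against 8.07% of all genes tested, and 0 were lower, against 4.4%. The same 3 claudins were higher in 5 of 5 lines, as were 6.76% of all genes. CLDN6 passed the filter only through its level after DAC, which favours its being counted here and in the counts within a line below. By a limit of 2-fold on log2(FPKM + 0.1) within a line, 3 of 8 claudins were higher in A549 (all genes 15.5%), 3 in CL1-0 (7.6%), 3 in CL1-5 (7.25%), 2 in PC9 (10.2%), 3 in H1299 (8.18%) and 1 in H1792 (10.3%). By the same limit, 1 of 8 claudins, CLDN3, was lower in H1792 (all genes 5.79%), and 0 were lower in A549 (6.69%), CL1-0 (2.14%), CL1-5 (5.05%), PC9 (3.1%) and H1299 (3.15%). The median log2 difference of the 8 was 0.34 over the 5 lines, beside 0.07 for all genes tested. That median of all genes moved to 0.19 when FPKM were rescaled to a common sum and to -0.04 after quantile normalization, and CLDN4, CLDN6 and CLDN7 were above 0 under both.

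CLDN6 was set against the 6 adult claudins CLDN1, CLDN2, CLDN3, CLDN4, CLDN7 and CLDN12 within each line, with no test. The CLDN6 difference minus the median difference of the adult claudins was 6.95 in PC9 and 3.23 in H1299 on the log2 scale, 2.09 in CL1-0, 1.91 in A549, 1.24 in CL1-5 and -1.19 in H1792. The mean was 3.08 ± 2.28 (SD, n = 5) without H1792 and 2.37 ± 2.68 (SD, n = 6) with it. CLDN6 exceeded all 6 adult claudins in PC9 and H1299, 5 of them in CL1-0 and 4 in A549 and CL1-5, where CLDN7 and, in A549 and CL1-5, also CLDN4 had larger differences. Because CLDN6 began near 0, the added 0.1 FPKM weighs on its difference more than on that of abundant genes, and the mean was 1.33 with a pseudocount of 1.

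**Figure D3:**
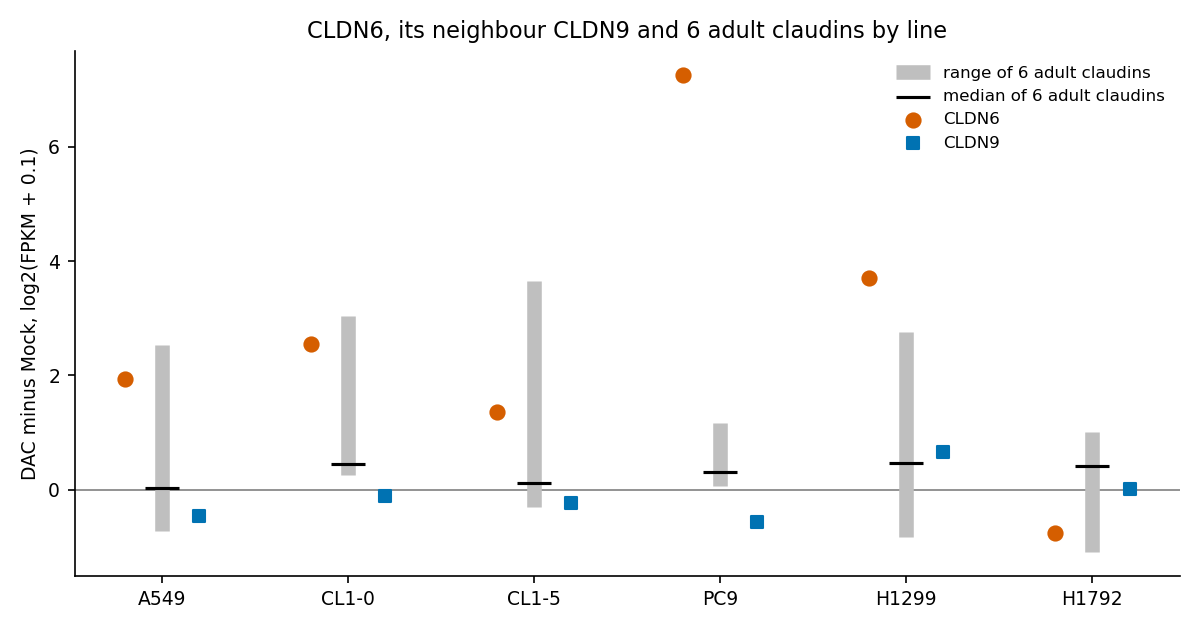
Difference between DAC and Mock on log2(FPKM + 0.1) in each of 6 lines for CLDN6 (circles) and CLDN9 (squares), with the range (grey bar) and the median (black dash) of the 6 adult claudins. CLDN6 lies above the adult median in 5 lines and below it in H1792, and above the whole adult range in PC9 and H1299.

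In absolute level, CLDN6 remained a small part of the claudin mRNA. Its share of the summed FPKM of the 8 claudins was 10.2% in PC9 after DAC, where it was the third most abundant behind CLDN7 (35.8%) and CLDN4 (34.3%), up from 0.0346% in Mock. It was 5.39% in CL1-0, 5.66% in CL1-5, 5.49% in H1299, 1.68% in A549 and 0% in H1792 after DAC. The leading claudin was the same in Mock and after DAC in each line: CLDN2 in A549, CLDN12 in CL1-0 and CL1-5, CLDN7 in PC9, CLDN1 in H1299 and CLDN4 in H1792. The share of CLDN12 went from 90.1% to 67.0% in CL1-0 and from 79.2% to 41.0% in CL1-5, while that of CLDN7 went from 2.24% to 18.8% and from 1.83% to 30.1%.

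**Figure D4:**
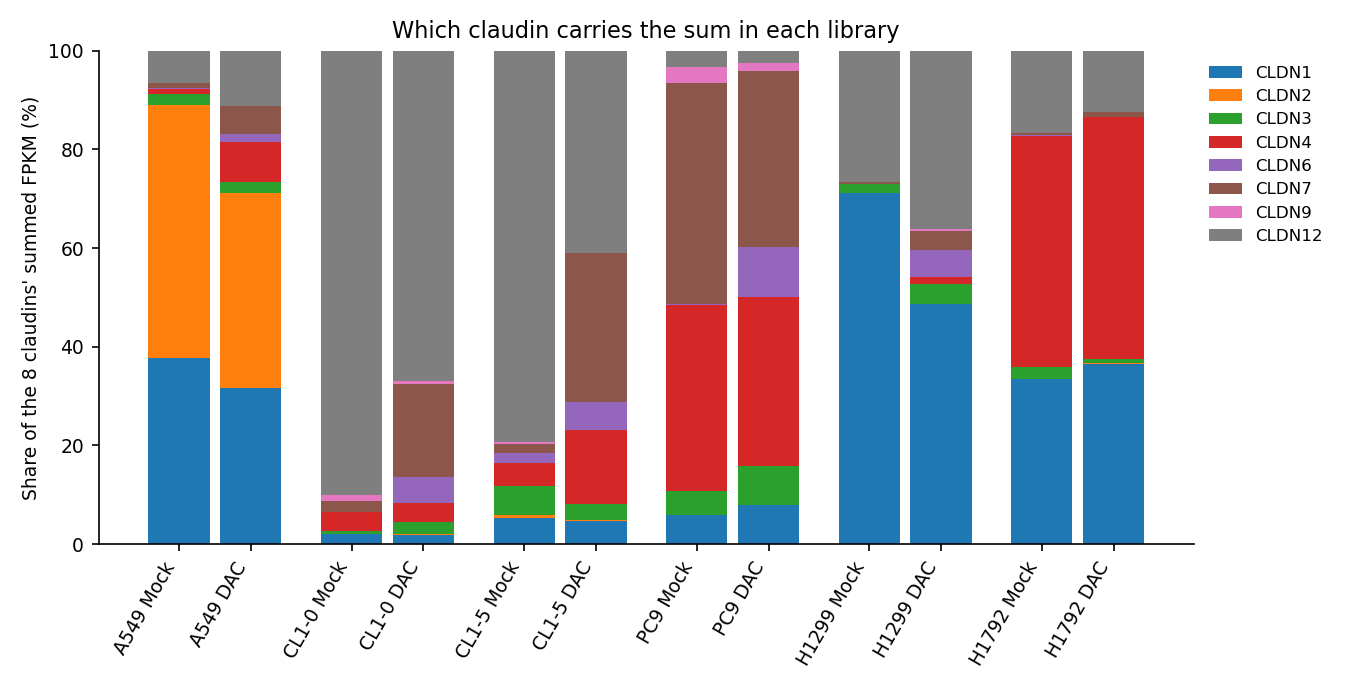
Share in percent of each claudin in the summed FPKM of the 8 claudins, 1 stacked bar per mRNA-seq library. The largest share belongs to the same claudin in Mock and DAC of each line, and CLDN6 takes 10.2% in PC9 after DAC.

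Some of these genes overlap others, which bears on how reads were assigned. The library kit marks strand, but whether counting used it is not stated in the sources used here. TNFRSF12A overlaps CLDN6 on the opposite strand and was at 17.2 to 96.5 FPKM in the 12 libraries. In PC9 it was at 67.6 FPKM in Mock and 79.3 after DAC. It went from 28.1 to 17.2 FPKM in CL1-0 and from 70.4 to 90.5 in H1792. Whether reads of TNFRSF12A were counted for CLDN6 was not tested. ELP5 overlaps CLDN7 on the opposite strand and ran from 6.83 to 31.7 FPKM. An annotated gene without a name overlaps CLDN7 on the same strand and is not in the expression table. Whether its reads were counted for CLDN7 was not tested. MORC4 overlaps CLDN2 on the opposite strand and in A549 went from 32.8 to 13.1 FPKM, the same direction as CLDN2 there. CLDN12 shares its strand with GTPBP10 and CDK14, whose annotated extents overlap it, so values of CLDN12 hold some uncertainty from read assignment.

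Omni-ATAC-seq gave a list of broad peaks per library, called by the authors for each library alone. The libraries labelled CL1-5 hold peaks named after PC9, and those labelled PC9 hold peaks named after CL1-5, so these libraries are called here by their labels only. No mRNA value is set against a peak of these 4 libraries. The lists held 45354 to 97584 peaks, and in each of the 4 pairs the DAC list was the longer one. The methods state an average number of raw reads over the samples, but the depth behind each single list is unknown.

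A promoter was counted as open when a peak overlapped the 1000 bp on either side of the start. With the start of the gene's annotation, 22 of the 32 claudin promoters over the 4 lines had a peak in Mock and 21 after DAC. For CLDN4, CLDN12 and CLDN2 this start lies 31454, 19740 and 20238 bp from that of the canonical transcript, and for CLDN6 and CLDN7 1888 and 1505 bp, so the canonical start was also used, a choice made after seeing the data. It gave 21 in Mock and 23 after DAC. By the canonical start, A549 had 5 open claudin promoters of 8 in Mock and 6 after DAC, where 70.1% and 73.0% of all promoters were open. H1299 had 5 and 5 (67.3% and 69.5%), the pair labelled CL1-5 6 and 6 (71.8% and 72.3%) and the pair labelled PC9 5 and 6 (70.3% and 73.4%). By the gene's annotated start the numbers were 5 and 5 in A549 (66.4% and 69.5%), 6 and 4 in H1299 (63.5% and 66.1%), 5 and 6 in the pair labelled CL1-5 (68.1% and 69.1%), and 6 and 6 in the pair labelled PC9 (66.8% and 70.0%). The claudins as a group were thus open about as often as promoters in general.

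CLDN1, CLDN3 and CLDN12 had a peak at the canonical start in 8 of 8 lists. That of CLDN12 was among the strongest, at percentile 80.8 to 99.1 of all promoters of its list by fold enrichment, promoters without a peak being placed at the bottom. CLDN9 and CLDN7 had one in 7 lists, CLDN4 in 6, and CLDN2 and CLDN6 in 0. The peaks of CLDN4 were weak, at percentile 28.8 to 41.2, and in the pair labelled CL1-5 they covered the start itself.

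Few claudin promoters gained or lost a peak. CLDN4 gained one in A549, where 15.7% of promoters without a peak gained one, and in the pair labelled PC9 (16.3%). In A549 this peak began 880 bp after the canonical start and had a fold enrichment of 2.80, and both lists also held a peak 2470 to 2508 bp from the start. CLDN9 gained one in H1299 (12.7%), 33 bp after its start, and CLDN7 lost one in H1299, where 2.81% of promoters with a peak lost it. No claudin lost one in A549 (2.58%) or in the pair labelled PC9 (2.54%). In the pair labelled CL1-5 no claudin gained one (14.0%) or lost one (4.76%). By the gene's annotated start, H1299 instead lost peaks at CLDN4, CLDN7 and CLDN12 (2.84%) and gained one at CLDN9 (11.9%), and the pair labelled CL1-5 gained one at CLDN4 (13.6%) and lost none (4.91%). By that start, no claudin gained or lost one in A549 (14.9% and 2.86%) or in the pair labelled PC9 (15.1% and 2.78%). CLDN7 mRNA in H1299 was 13.2-fold higher after DAC while the peak 576 bp from its start was in the Mock list only. That peak had a fold enrichment of 2.65, and the DAC list of H1299 held another, of 2.54, at 1947 bp from the start. CLDN4 mRNA in A549 was 6.60-fold higher beside a gained peak.

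CLDN6 had no peak within 1000 bp of its canonical start in any of the 8 lists, DAC lists included. The nearest peak lay 2082 to 2616 bp away, beyond the CLDN6 start, and was listed by the authors for TNFRSF12A in 7 lists and for THOC6 in 1. That peak was in both lists of every line and falls within 1000 bp of the most distant annotated CLDN6 start, which is why CLDN6 counts as open in 8 of 8 lists by the gene's annotated start. At the neighbouring CLDN9 the peak lay 0 to 310 bp from the start in the 7 lists that have it. In H1299, with CLDN6 at 0.0402 and 1.72 FPKM, and in A549, with 0.134 and 0.796 FPKM, the higher mRNA after DAC had no called peak at the canonical start beside it. An absent peak says only that the caller's threshold was not reached in that library.

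**Figure D5:**
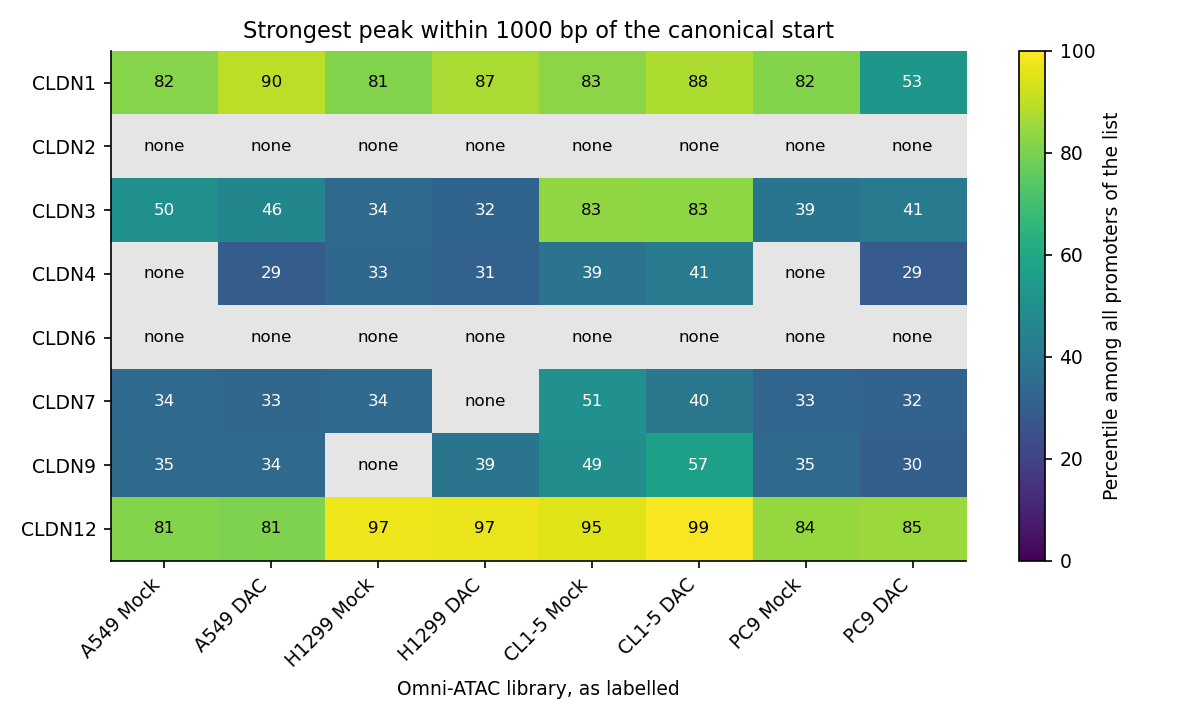
Percentile of the strongest peak within 1000 bp of the canonical start among all promoters of the same list, for 8 claudins (rows) in 8 Omni-ATAC-seq libraries named by their labels (columns), grey where no peak was called. CLDN2 and CLDN6 are grey in every library, CLDN1, CLDN3 and CLDN12 have a value in every library, and CLDN4 gains a value after DAC in A549 and in the pair labelled PC9.

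Of the 12 other claudin genes, 9 passed the filter and 0 passed the adjusted threshold in limma. Those at or above 1 FPKM in at least 1 library were CLDN10, CLDN11, CLDN14 and CLDN15. CLDN11, the claudin of myelin and of the testis barrier, was at 47.1 FPKM in H1792 Mock and 56.6 after DAC, above every member of the 8 in that line, and at 2.16 and 1.65 FPKM in CL1-5. CLDN15, which forms a cation pore in the intestine, was at 1.80 to 7.34 FPKM in all 12 libraries. CLDN10 was highest in H1792, at 4.56 and 4.91 FPKM, followed by H1299 at 0.999 and 1.49, and CLDN14 went from 0.0424 to 1.56 FPKM in H1792 and from 1.19 to 0.650 in CL1-5. The median log2 difference of the 9 was 0.30, beside 0.07 for all genes, and 1 of them was higher at an unadjusted p under 0.05, where 8.07% of all genes were.

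Claudins are held in the junction by partner proteins, of which 27 were in the table and were tested. None passed the adjusted threshold in limma. At an unadjusted p under 0.05, 3 were higher (CGN, PARD6B and CXADR, named after their values were seen) and 2 were lower (TJP3 and SYMPK, likewise), where 8.07% and 4.4% of all genes were. The median log2 difference was 0.17, beside 0.07 for all genes. OCLN, the tetraspan partner of claudins in the strand, was at 0.17 ± 0.14 (SE, adjusted p = 0.611), and TJP1, the ZO-1 scaffold that binds claudin tails, at 0.19 ± 0.15 (adjusted p = 0.599). The smallest difference was that of PARD6A, a polarity protein, at -0.56 ± 0.27 (adjusted p = 0.431). All of these are limma estimates over the 5 lines on log2(FPKM + 0.1).

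Of 18 epithelial adhesion genes, all tested, 0 passed the adjusted threshold, 7 were higher before adjustment (limma p under 0.05) and 0 lower, beside 8.07% and 4.4% of all genes. The median log2 difference was 0.42, beside 0.07 for all genes. SPINT1, a membrane inhibitor of serine proteases, had the largest, at 1.78 ± 0.45 (SE, n = 5, adjusted p = 0.238), higher in 5 of 5 lines, and ESRP1, a splicing factor of epithelial cells, the smallest, at -0.11 ± 0.25 (adjusted p = 0.864). EPCAM, a surface protein that binds CLDN7, was at 1.69 ± 0.54 (adjusted p = 0.309). It was at 235.2 and 233.6 FPKM in PC9, where CLDN7 was also highest, and went from 0.0555 to 2.57 FPKM in H1299, from 0.132 to 1.13 in CL1-5, from 0.151 to 0.456 in CL1-0 and from 3.19 to 5.74 in A549. CDH1, the adherens junction cadherin, was at 0.31 ± 0.21 (adjusted p = 0.552), with 25.5 and 49.5 FPKM in PC9, 24.8 and 39.7 in A549, and at most 1.33 FPKM in CL1-0, CL1-5, H1299 and H1792.

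Of 7 transcription factors that repress epithelial genes, 0 passed the adjusted threshold, 1 was higher and 1 lower at an unadjusted limma p under 0.05 (all genes 8.07% and 4.4%), and the median log2 difference was -0.01, beside 0.07 for all genes. SNAI1 had the largest difference, 1.35 ± 0.51 (SE, n = 5, adjusted p = 0.365), and TWIST2 the smallest, -0.78 ± 0.31 (adjusted p = 0.376). Of 14 oncofetal and pluripotency genes, to which CLDN6 may be compared as a gene of embryonic cells, 12 were tested, 0 passed the adjusted threshold, and 3 were higher (LIN28B and SALL4 beside DPPA4, named after their values were seen) and 0 lower by the unadjusted limit (all genes 8.07% and 4.4%), with a median of 0.33 beside 0.07. DPPA4 had the largest difference, 1.86 ± 0.41 (SE, n = 5, adjusted p = 0.193), and was at 0.049 to 1.00 FPKM after DAC in the 5 lines, and SOX2 the smallest, -0.07 ± 0.19 (adjusted p = 0.884). The mean difference of CLDN6, 3.36, was larger than that of each of these 12 genes. CLDN6 passed the filter only through its level after DAC, which favours this order.

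The genes whose pattern over the 12 libraries was most like that of each claudin were sought among 14954 other protein-coding genes by Pearson's r on log2(FPKM + 0.1), as a description, since the 2 libraries of a line share most of their level. For CLDN6 these were CAPN11 (r = 0.917), PRSS38 (0.887) and MMP19 (0.883). For CLDN7 they were CNKSR1 (0.964), ESPN (0.959) and FAM178B (0.957), for CLDN4 ICAM2 (0.980), EPHA4 (0.975) and NFATC2 (0.974), and for CLDN3 UBE3C (0.948), MYO5B (0.946) and PRRG4 (0.945). CLDN1 was most like GPR39 (0.969), SMAD7 (0.965) and ARSI (0.963), and CLDN12 like MEX3C (0.969), NBPF4 (0.957) and NBPF6 (0.956). For the claudins of a single line, CLDN2 was like HGD (0.996) and SP9 (0.987), and CLDN9 like CR2 (0.994), KLK5 (0.991) and A2ML1 (0.990). Among the 8 claudins themselves, CLDN7 and CLDN9 were most alike (r = 0.864), followed by CLDN3 and CLDN9 (0.826) and CLDN3 and CLDN7 (0.792), all of which have their highest level in PC9, whereas CLDN6 and CLDN9 had an r of 0.450.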

How the data were processed

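mRNA-seq libraries were those of Mock and DAC in 6 lines, and Omni-ATAC-seq libraries those in 4, grouped by line and treatment as the labels give them. The authors trimmed the mRNA-seq reads, aligned them to hg19 (RSEM with bowtie2 in the methods, TopHat2 2.1.1 in the submitters' processing notes), counted them per gene on a GENCODE annotation of GRCh37 and deposited FPKM values normalized with DESeq2 1.24.0, with a mean normalized signal per gene. The authors' fold changes and p-values in that table were not used. For Omni-ATAC-seq the authors aligned with BWA 0.7.17-r1188, removed duplicates, used MACS2 2.2.5 to call broad peaks in each library and annotated them with ChIPseeker 1.20.0, and each deposited list gives a score, a fold enrichment (a ratio to the local background), and the −log10 of a p-value and of a q-value. Columns of per-sample values that match no sample numbered 0.

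Whole reads were recovered from the FPKM and the mean signal, 100% of values within 0.01 of a whole number. The 10 libraries of the lines other than H1792 entered the main fit, which took genes whose FPKM averaged 0.1 or more. Their log2(FPKM + 0.1) values were fitted in R 4.3.3 by limma 3.58.1 with the line as block, an intensity trend and Benjamini-Hochberg adjustment over all 22603 genes at 0.05. H1792 was described by itself and added as an alternative. The p-values measure the spread between lines and assume that they are independent. Mock and DAC share a line, which is the pairing of the labels, and after subtraction of each treatment's mean the libraries of 1 line correlated at 0.731 to 0.900, against at most 0.115 across lines. Ratios within a line rest on 1 library per treatment, and their 95% exact binomial intervals and the floor of 3 reads cover counting error only. Starts, overlapping genes and sequences came from the GENCODE annotation and genome of GRCh37, the build of the files. Python 3.11.15, pandas 2.3.3, numpy 2.4.6, scipy 1.17.1 and matplotlib 3.10.9 were used.

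The 8 claudins and the gene lists were chosen with earlier results of these data known. The text names the 8 claudins, other claudins at or above 1 FPKM in at least 1 library, OCLN, TJP1, CDH1 and EPCAM, the gene with the largest and the smallest log2 difference of each list, and the 3 genes most like each claudin. Some genes that this rule takes and 1 sequence are not reported here. Alternatives were other pseudocounts (1 and 0.01), filters (none, or 1 FPKM on average) and scalings (TPM, quantile normalization), a fit without the trend or without the block, H1792 included, voom on the recovered reads, each line left out, and other windows, thresholds and matching for peaks.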

Additional observations from a re-analysis of the deposited data

Results flagged for a closer look

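Over the 8 claudins, 24 groups of 6 lines (the level in Mock, the level after DAC and the difference) were examined for a single line far from the others by Dixon's ratio, against a limit of 0.625, and 7 were found. Chance alone gives about 1 in 20 such groups, and the levels of a claudin in Mock and after DAC are not independent of each other. All values are on log2(FPKM + 0.1). CLDN2 stood out in A549, at 4.96 in Mock where the next line was at -2.36, and at 4.23 after DAC where the next was at -1.70. CLDN9 stood out in PC9, at 2.35 in Mock against -2.39 in the next line, and at 1.79 after DAC against -1.91. CLDN7 stood out in PC9 as well, at 6.17 in Mock against -0.56 in the next line, and at 6.38 after DAC against 1.46. CLDN3 stood out in PC9 after DAC, at 4.19 against 0.43 in the next line. All 7 concern levels, and none of the differences between DAC and Mock met the limit, that of CLDN6 in PC9 included.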

How the results depend on the processing

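No claudin passed the adjusted threshold under any of the 15 mRNA alternatives, so their calls rest on no setting tried. CLDN3, CLDN4, CLDN6, CLDN7 and CLDN12 were above 0 in all 15, and CLDN2 and CLDN9 below 0 in all 14 and 13 that could be computed. CLDN1 changed sign with a pseudocount of 1 (-0.052), with voom on recovered reads (-0.14), and without CL1-0 (-0.024), CL1-5 (-0.016) or PC9 (-0.17), and leaving out each line gave -0.17 to 0.28. The log2 difference of CLDN6 ran from 1.51 with a pseudocount of 1 to 5.01 with voom, that of CLDN7 from 1.06 to 2.86 and that of CLDN4 from 0.69 to 1.98. Claudins higher at an unadjusted p under 0.05 numbered 3 or 4, except 1 without the replicate block, and the block changed no other call of a claudin. The number of genes higher past the adjusted threshold, 27, moved to 0 with a pseudocount of 1, 2 without a filter, 41 after rescaling to a common sum, 17 after quantile normalization, 6 without the trend, 10 without the replicate block, 53 with H1792 and 178 with voom (1 lower with voom). Leaving out each line gave 0 to 22 higher genes (0 without A549 or CL1-5, 5 without CL1-0, 12 without PC9) and 0 to 1 lower genes (1 without H1299). The CLDN6 difference minus the adult median ran from 1.33 to 4.30 over 11 alternatives, and from 2.12 to 3.55 with each line left out. Claudin promoters with a peak numbered 11 in Mock and 13 after DAC when the peak had to cover the start, and leaving out each line gave 16 to 17 in Mock and 15 to 17 after DAC. The cause of these shifts was not tested. At 1 library per line and treatment, differences within a line have no replicate check, and claudins with 0 to 5 reads in Mock, CLDN6 above all, are limited by depth.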
